A study of Mus musculus with 4 samples.

Results

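The adipogenic fibroblasts of the newborn mammary gland were mesenchyme cells of the P0 (day of birth) library that carried UMIs of Fabp4, Aoc3 and Pparg and few of Pi16, Dpp4 and Sema3c. A UMI, or unique molecular identifier, stands for 1 captured RNA molecule. Of the 1466 barcodes of that library, 503 passed the filters, a minimum of 5000 UMIs and a mitochondrial share of no more than 6%. Of these, 265 were mesenchyme, with at least 10 UMIs of the collagen genes Col1a1, Col1a2 and Col3a1 and more than 2 times as many of these as of Epcam, Krt8, Krt18, Krt5, Krt14 and Krt15 together. A cell was called adipogenic with at least 2 UMIs of Fabp4, Aoc3 and Pparg together (the adipogenic sum) and fewer than 7 of Pi16, Dpp4 and Sema3c together (the Pi16 sum). Members were thus chosen by their measured UMIs of these 6 genes. The rule found 89 adipogenic cells among the 1630 cells kept in the whole series, and they made up 33.6% of the P0 mesenchyme (95% exact binomial interval 27.9% to 39.6%). The other 176 P0 mesenchyme cells were 108 cells with a Pi16 sum of at least 7 (Pi16 cells) and 68 cells of neither class.

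The series holds 4 single-cell RNA-seq libraries of mammary tissue from female wild-type C57B6 mice (C57 B6/N in the study's methods), 1 for embryonic day E13.5, 1 for E14.5, 1 for E15.5 and 1 for P0, with no treatment and no engineered allele in any group. For each stage the buds of several animals from different litters were pooled, dissociated with collagenase and hyaluronidase, and sorted by EpCAM after removal of CD45+, CD31+ and Ter119+ cells. P0 tissue was digested with other enzyme amounts than the embryonic stages and went through a lysis of red blood cells. With 1 library a stage there was no replicate, so no test was made, and every interval below is an exact 95% interval that covers counting error only.

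White fat cells arise from mesenchymal progenitors that first commit as preadipocytes and then differentiate under the nuclear receptor PPARgamma, encoded by Pparg, together with C/EBP factors. Maturing cells take up fatty acids released by lipoprotein lipase (Lpl), bind them with carriers such as Fabp4, store them in lipid droplets and finally secrete hormones such as adiponectin (Adipoq). In fat depots, Pi16 and Dpp4 mark an upstream interstitial progenitor and Icam1 a committed preadipocyte. The mammary epithelium sprouts into the precursor of such a fat pad before birth and branches through it afterwards.

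Promoter sequences are printed for Saa3, an acute-phase protein gene, Rgs16, a regulator of G protein signaling, and Agt, the angiotensinogen gene. These are the 3 highest-ranked genes of adipogenic cells with a single start site in the RefSeq promoter table (GRCm38.p6), and the sequences show which regulatory letters stand next to them. Each is the 250 bases before the start site, for Saa3 chr7:46715677-46715926, minus strand, for Rgs16 chr1:153740103-153740352, plus strand and for Agt chr8:124569707-124569956, minus strand. Capitals mark the C/EBP letters TTGCNNAA in Saa3, the NF-kB letters (GGGA, any 4 bases, then CC) in Rgs16, and both the NF-kB letters and the TATA box letters TATAAA in Agt, each searched on both strands.
Saa3: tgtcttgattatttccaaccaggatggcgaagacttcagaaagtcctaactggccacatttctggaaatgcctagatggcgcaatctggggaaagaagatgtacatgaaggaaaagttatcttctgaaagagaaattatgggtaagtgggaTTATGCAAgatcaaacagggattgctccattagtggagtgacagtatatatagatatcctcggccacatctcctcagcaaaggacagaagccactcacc
Rgs16: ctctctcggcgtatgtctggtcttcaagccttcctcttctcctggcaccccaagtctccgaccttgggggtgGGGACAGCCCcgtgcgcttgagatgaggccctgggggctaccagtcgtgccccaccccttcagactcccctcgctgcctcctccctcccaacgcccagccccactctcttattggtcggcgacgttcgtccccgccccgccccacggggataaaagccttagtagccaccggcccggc
Agt: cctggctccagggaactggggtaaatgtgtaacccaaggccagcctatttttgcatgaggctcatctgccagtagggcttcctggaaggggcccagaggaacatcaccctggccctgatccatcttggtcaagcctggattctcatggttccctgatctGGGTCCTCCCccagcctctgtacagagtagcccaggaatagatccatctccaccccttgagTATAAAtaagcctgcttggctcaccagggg

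Of the 15 highest-ranked genes, 9 matched the promoter table. Car3, Angptl4, Cxcl5, Mmp19, Trf and Arc did not. The NF-kB letters stood in 3 of the 9 windows, TTGCNNAA in 1 and TATAAA in 1, counting the first listed window of each gene. Of the 10 lowest-ranked genes 8 matched, with these letters in 2, 1 and 1 windows. In the 9 and the 8 windows the nuclear receptor half-site AGGTCA stood in 0, as did the paired form that contains it, 2 copies of AGGTCA with 1 base between. Of 27025 promoters of the same length, 1 for each gene, 17.3% held the NF-kB letters, 9.55% TTGCNNAA, 12.97% TATAAA, 13.8% AGGTCA and 0.037% the paired form. Apoe had 3 windows, and the one that starts at 19698622 on chromosome 7 held the NF-kB letters and TATAAA, so that 4 and 2 of the 9 genes held them in any window. A match describes letters in a window and not a bound site.

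The label of the cells was checked against its 5 markers. Fabp4, Aoc3 (an amine oxidase of the fat cell surface) and Pparg formed the rule, so their values only describe the choice. Fabp4 (chr3:10204088-10208576, mm10) was at 1086 (1013 to 1163) CPM (a class's summed UMIs of the gene for each 1000000 of its UMIs) in adipogenic cells, 64.6 (50.7 to 81.0) in Pi16 cells and 10.7 (3.92 to 23.3) in cells of neither class. It had a median of 4 and a highest value of 55 UMIs in a cell, and 77 of the 89 cells had at least 1. Aoc3 (chr11:101330605-101341938) was at 192 (162 to 226) CPM, in 65 cells. Pparg (chr6:115360951-115490399) was sparse, at 48.0 (33.6 to 66.5) CPM, in 26 cells. In the 229 epithelial cells of the library, which should lack Fabp4, 12 cells had 1 UMI each, at a median depth of 9980 UMIs against 8194 in adipogenic cells.

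The 2 remaining markers took no part in the rule and behaved differently from each other. Angptl4, a secreted inhibitor of lipoprotein lipase and a known PPAR target (chr17:33773750-33781830), was at 395 (351 to 443) CPM in adipogenic cells, 27.9 (19.1 to 39.4) in Pi16 cells and 41.0 (26.0 to 61.5) in cells of neither class. That is 12.3-fold (9.17 to 16.7) the level of all other mesenchyme, carried by 49 of 89 cells. The size depends on the rule. With Fabp4 left out of it (at least 1 UMI of Aoc3 and Pparg), 89 cells were chosen, 74 of them members, and the ratio of Angptl4 was 4.03-fold. With every cell thinned before the rule it was 4.70-fold. Col15a1, a basement membrane collagen (chr4:47208161-47313167), was at 188 (158 to 222) CPM in adipogenic cells and 166 (134 to 203) in cells of neither class, or 1.14-fold (0.868 to 1.49), and had 1 UMI in all 108 Pi16 cells. Col15a1 set both Pi16-low classes apart from the Pi16 cells and did not set the adipogenic cells apart from the other Pi16-low cells. It was detected in 43 of 89 adipogenic cells and 20 of 68 cells of neither class.

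The limits cut a continuous range. The adipogenic sum of the members had a median of 6 and a highest value of 55, with 12 cells at the limit of 2, 30 cells at 3 to 5 and 47 cells at 6 or more. Just outside lay 21 cells with a sum of 1, and 17 of the 106 cells with a sum of at least 2 were left out for their Pi16 sum. On that side 40 members had a Pi16 sum of 0 and 3 stood at 6. Adipogenic cells had a median of 8194 UMIs, Pi16 cells 9895 and cells of neither class 7750. When every cell was thinned to 5000 UMIs the rule found 82 adipogenic cells, 73 of them among the 89.

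**Figure D1:**
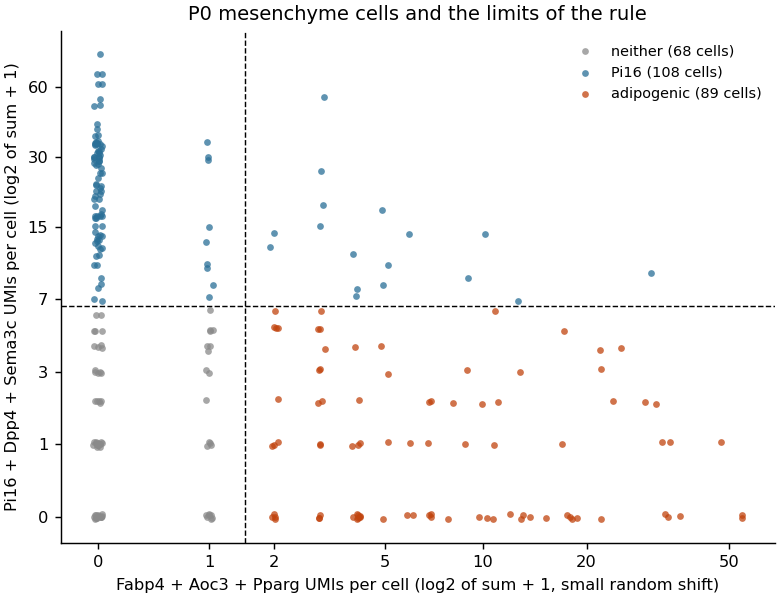
Each point is 1 of the 265 P0 mesenchyme cells, placed by its UMIs of Fabp4, Aoc3 and Pparg (horizontal) and of Pi16, Dpp4 and Sema3c (vertical), with lines at the limits of the rule. The 89 adipogenic cells run from a sum of 2 to 55, and 17 cells with a sum of at least 2 lie above the Pi16 limit. Both axes are log2 of the UMIs + 1, with a small random shift to part the points.

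All further comparisons set adipogenic cells against other cells of the same library, with the 15 genes of the rule left out. A gene was measured with at least 50 UMIs over both sides, and counted as higher or lower when its CPM differed by at least 2-fold. Against the other 176 mesenchyme cells, 152 of 5096 genes (2.98%) were higher in adipogenic cells and 253 (4.96%) lower. Against Pi16 cells, 216 of 4304 genes (5.02%) were higher and 282 (6.55%) lower. Against cells of neither class, 72 of 3263 (2.21%) were higher and 71 (2.18%) lower. Of the 152 higher genes, 66 were past 2-fold against each class, 82 against Pi16 cells only and 4 against cells of neither class only. Of the 253 lower genes, 93 were past 2-fold against each class, 143 against Pi16 cells only and 17 against cells of neither class only. The classes were cut from these same cells by their expression, so the counts describe the division.

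Genes of lipid uptake were among the abundant differences. Of 14 measured genes of lipid uptake, lipolysis and droplets, 5 were higher in adipogenic cells than in the other mesenchyme and 1 was lower (2.98% and 4.96% of all genes), with a median log2 ratio of 0.16 against -0.02 over all genes. Apoe, the apolipoprotein E gene (chr7:19696109-19699188), was at 2932 (2811 to 3058) CPM in adipogenic cells, 743 (673 to 818) in cells of neither class and 231 (204 to 261) in Pi16 cells. It was found in 78 adipogenic cells, with a median of 17 and a highest value of 136 UMIs, and in 31 of 68 and 43 of 108 cells of the other classes. Its ratio to the other mesenchyme of 7.34-fold lay between 4.15 and 16.8-fold in the other settings, lowest with the rule without Fabp4. Lpl (chr8:68880491-68907448) was at 2136 (2033 to 2243) CPM, against 654 (589 to 724) and 574 (531 to 619.6) in the same order. It was found in 86 of 89 adipogenic cells, 93 of 108 Pi16 cells and 56 of 68 cells of neither class, in adipogenic cells with a median of 15 and a highest value of 90 UMIs, while 10 of 229 epithelial cells had any.

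Other lipid genes were less abundant. Plin2, a coat protein of lipid droplets, was at 105 (83.4 to 131) CPM in 34 cells, 3.75-fold (2.59 to 5.48) the level of the other mesenchyme and 2.11-fold with the rule without Fabp4. Fabp5, a fatty acid-binding protein, was 2.16-fold (1.73 to 2.69) higher than in the other mesenchyme as a whole, under 2-fold in 4 settings (1.77-fold with every cell thinned before the rule), and 1.36-fold (1.04 to 1.79) the level in cells of neither class. Mgll, which cleaves monoglycerides, went the other way, with 4 UMIs in adipogenic and 79 in the other cells, 8.67-fold (3.26 to 32.6) lower (4.50-fold with no upper limit on the Pi16 sum). Cd36, a fatty acid transporter under the limit of 50 UMIs, had 15 UMIs in 10 adipogenic cells and 3 UMIs in the others.

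Of 6 measured genes of fatty acid and triglyceride synthesis 0 were higher and 1 lower (2.98% and 4.96% of all genes). The lower gene, Scd2, a fatty acid desaturase, was at 101 (79.9 to 127) CPM against 260.0 (231 to 291) in Pi16 cells and 146 (116 to 181) in cells of neither class, and in 5 settings it was under 2-fold lower, at the least 1.60-fold with every cell thinned before the rule. All 13 measured transcription factors and cofactors of adipogenesis lay within 2-fold of the other mesenchyme, where 2.98% of all genes were higher and 4.96% lower, with a median log2 ratio of 0.01. Cebpd was 1.75-fold (1.54 to 1.99) the level of the other mesenchyme, Cebpb 1.32-fold (1.18 to 1.47), Cebpa 1.44-fold (0.848 to 2.42) and Ebf1 1.01-fold (0.867 to 1.16). Klf4, the most abundant gene of the list, was 2.03-fold (1.83 to 2.26) lower than in Pi16 cells. Klf5, which is known to act upstream of Pparg, was 3.54-fold (1.92 to 6.81) higher than in Pi16 cells and 1.03-fold (0.608 to 1.75) the level in cells of neither class. Against all other mesenchyme it was 1.96-fold (1.23 to 3.11), and it passed 2-fold in 5 other settings, as Cebpd did in 1. Zfp423, a preadipocyte factor, was too sparse to be measured, with 5 UMIs in adipogenic and 32 in other mesenchyme cells.

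Transcripts of mature fat cells were found in very few members. Adipoq had 40 UMIs, in 3 cells with 19, 15 and 6, and 0 in the other mesenchyme. The same 3 cells were among the 4 with any Car3, a carbonic anhydrase gene abundant in fat (chr3:14863512-14872523), which held 68, 55, 12 and 11 UMIs. Car3 had 1 UMI in the other 176 cells and ranked first of all genes, on 4 of 89 cells. Its log2 ratio of 8.38 was 1.37 with the rule on Aoc3 and Pparg without Fabp4. Those 4 cells had adipogenic sums of 55, 7, 53 and 3 in the same order and at most 1 UMI of Col15a1. Cidec, Lep and Pck1 had 0 UMIs in adipogenic cells, where 3 UMIs would be 4.002 CPM. Of 7 brown and beige fat genes, Ucp1, Cidea, Dio2, Elovl3 and Cox8b were at 0 UMIs, and the other 2 had 3 UMIs in all, 2 of them of Prdm16. Retn, which encodes resistin, had 10 UMIs in 3 adipogenic cells, while 70 of its 71 UMIs in Pi16 cells lay in 1 cell without Fabp4.

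Dlk1, the imprinted preadipocyte factor that is lost as fat cells mature (chr12:109452823-109463336), was abundant in every class. It was at 7790.2 (7592 to 7993) CPM in adipogenic cells, 7077 (6924 to 7233) in Pi16 cells and 7568 (7342 to 7799) in cells of neither class, and all 89 adipogenic cells had it, with a median of 66 and a highest value of 192 UMIs. The 16 measured imprinted growth genes all lay within 2-fold of the other mesenchyme, with a median log2 ratio of -0.47 against -0.02 over all genes, of which 2.98% were higher and 4.96% lower. Of 16 measured genes of committed preadipocytes, 4 were higher (Icam1, Ccl11, Cxcl12, Fabp5) and 2 lower, where 2.98% and 4.96% of all genes were. With a Pi16 sum under 3 the ratio of Cxcl12 was 1.81, under 2-fold. Icam1, an adhesion molecule (chr9:21015985-21028817), was at 322 (282 to 365) CPM, against 73.3 (58.5 to 90.7) in Pi16 cells and 48.1 (31.7 to 70.0) in cells of neither class, and was present in 51 cells with up to 23 UMIs. Its ratio to the other mesenchyme of 4.95-fold was 2.10-fold without cells bearing endothelial, mural or macrophage markers. The lower genes were Cd34, a progenitor surface protein, by 2.79-fold (2.32 to 3.36) (1.67-fold without cells bearing endothelial, mural or macrophage markers), and Cd24a by 2.44-fold (1.42 to 4.46). Against cells of neither class 2 of 16 measured genes of this list were higher (Icam1 and Ccl11) and 2 lower (Cd24a and Smoc2). There 2.21% and 2.18% of all genes were higher and lower, and Cd34, Cxcl12 and Fabp5 lay within 2-fold.

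**Figure D2:**
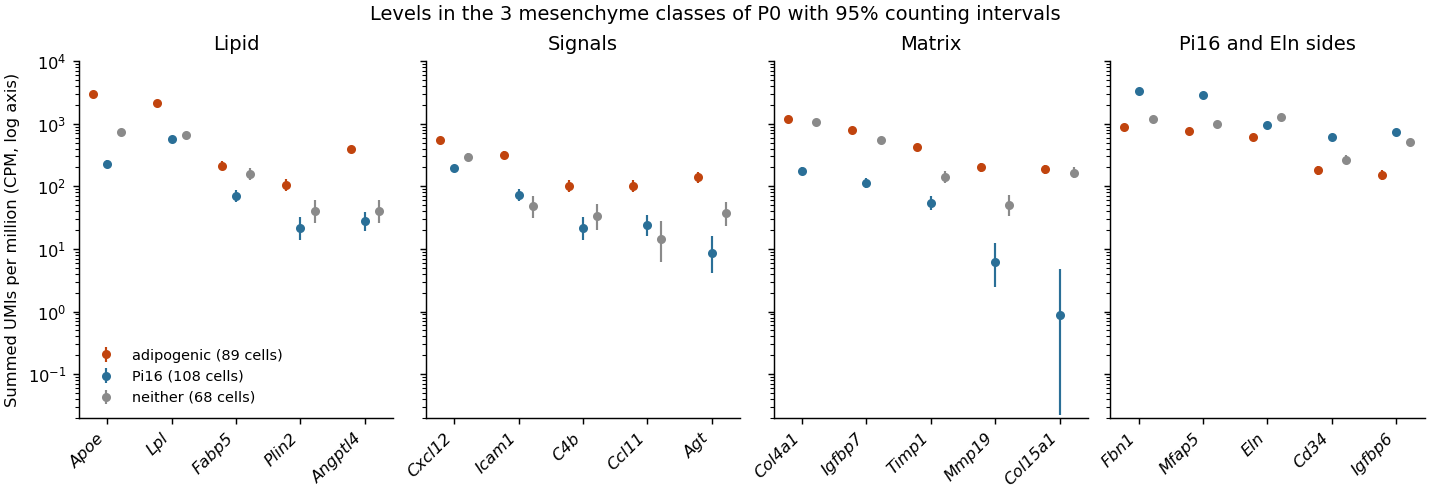
Points give the summed level (CPM, log axis) of each gene in adipogenic, Pi16 and neither cells of P0, with bars for the exact 95% Poisson interval. Apoe and Lpl stand highest in adipogenic cells, Col15a1 and Col4a1 are nearly level between adipogenic and neither cells, and Mfap5 is highest in Pi16 cells.

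Chemokine, cytokine and complement genes were a further group with several higher members. Against all other mesenchyme 6 of 20 measured genes were higher and 2 lower (2.98% and 4.96% of all genes). With a Pi16 sum under 3 the count of higher genes was 3, where 3.39% of all genes were higher. Against cells of neither class 8 of 17 were higher and 0 lower (2.21% and 2.18%), with a median log2 ratio of 0.97 there. Cxcl12, the ligand of Cxcr4, was at 548 (497 to 604) CPM, against 193 (168 to 220.0) in Pi16 cells and 298 (254 to 346) in cells of neither class, and was found in 70 cells, with the ratio of 1.81 under the stricter Pi16 limit. Ccl11, or eotaxin, was at 101 (79.9 to 127) CPM against 24.4 (16.2 to 35.3) and 14.3 (6.15 to 28.1), and its ratio to the other mesenchyme of 4.81-fold was 10.1-fold without cells bearing endothelial, mural or macrophage markers. The complement genes C1s1 and C4b were 2.37-fold (1.96 to 2.88) and 3.99-fold (2.72 to 5.91) higher than in the other mesenchyme. Cxcl9, also counted as higher, had 29 of its 40 UMIs in 1 cell and a ratio of 1.19 without the richest cell of each class. Cxcl1, a neutrophil chemokine, was abundant and within 2-fold, at 5471 (5305 to 5641) CPM against 4119 and 3399. Ccl2, Ccl7, Cxcl10 and Il6 were 2.06, 2.64, 2.44 and 2.06 times the level in cells of neither class, but 1.30, 1.07, 0.891 and 1.39 times that in Pi16 cells. Of 27 measured genes of early response and tissue dissociation, Zfp36 was 2.47-fold (2.18 to 2.79) higher, Hspa1a was lower and 25 lay within 2-fold, close to the shares of all genes (2.98% higher and 4.96% lower), and the part of dissociation in these levels was not tested.

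Some of the highest-ranked genes rested on few cells. Saa3 (chr7:46711998-46715700), 1 of the 3 genes with a printed promoter, had 96 UMIs in adipogenic and 4 in other mesenchyme cells, with 73 of them in 1 cell and 5 cells in all. Cxcl5, a neutrophil chemokine (chr5:90759360-90761624), had 235 UMIs in 8 cells, 4 of which held 77, 65, 54 and 26. Of 3 members with at least 10 Saa3 UMIs and 4 with at least 10 Cxcl5 UMIs, 0 had both. Arc, an immediate early gene, had 37 of its 55 UMIs in 1 cell, and its ratio of 7.83 was 3.15 without the richest cell of each class and 1.38 without cells bearing endothelial, mural or macrophage markers. Without those cells the ratio of Saa3 was 4.42 and that of Cxcl5 4.02, in place of 54.7 and 12.7. Without each gene's richest cells, 128 genes were higher and 247 lower in place of 152 and 253.

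Other genes of the same rank were carried by many cells. Agt (chr8:124556534-124569706), which makes the precursor of angiotensin, had 104 UMIs in 32 cells and stood at 139 (113 to 168) CPM, against 8.72 (4.18 to 16.0) in Pi16 cells and 37.4 (23.2 to 57.2) in cells of neither class. Rgs16 (chr1:153740349-153745468) had 78 UMIs in 32 cells against 7 UMIs in the 176 others, 25.4-fold (11.8 to 65.2) higher. With the rule on Aoc3 and Pparg without Fabp4 the ratio of Rgs16 was 4.41-fold in place of 25.4-fold, and that of Agt 2.69-fold in place of 7.64-fold. Casp4, an inflammatory caspase, was found in 38 cells and was 5.89-fold (3.79 to 9.38) higher. Tmem176a, a membrane protein gene, was 8.35-fold (4.34 to 17.4) higher in 28 cells, Trf, encoding the iron carrier transferrin, 7.30-fold (4.93 to 11.1) in 20 cells and Ifitm1, an interferon-induced gene, 8.03-fold (4.89 to 13.7) in 22 cells. In some other settings these ratios were lower by over 1.5 times. Casp4 was at 2.86-fold without cells bearing endothelial, mural or macrophage markers and 3.24-fold with the rule without Fabp4, and Tmem176a at 4.28-fold and 3.28-fold. Trf was at 4.37-fold with a Pi16 sum under 3, and Ifitm1 at 4.69-fold with every cell thinned before the rule. Compared only with other mesenchyme cells with an adipogenic sum of 0, Trf was at 20.1-fold and Agt at 14.4-fold, both larger.

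Collagen IV, collagen XV and nidogen 2 genes were higher in adipogenic cells than in Pi16 cells. Of 15 measured basement membrane genes, 5 were higher in adipogenic cells than in the other mesenchyme and 0 lower (2.98% and 4.96% of all genes). Against Pi16 cells 6 were higher and 9 lay within 2-fold (5.02% of all genes higher, 6.55% lower), and against cells of neither class 1 was higher, 2 were lower and 12 lay within 2-fold (2.21% and 2.18% of all genes higher and lower). Col4a1, a chain of collagen IV (chr8:11198423-11312826), was at 1207 (1130.0 to 1289) CPM in adipogenic cells, 1069 (985 to 1158) in cells of neither class and 176 (153 to 202) in Pi16 cells, in 86 members with a median of 8 and a highest value of 37 UMIs. Col4a2, its partner chain, was at 426 (380.2 to 475), 424 (372 to 481) and 75.9 (60.8 to 93.6) CPM in the same order. Both collagen IV chains were level between the Pi16-low classes. Nid2, or nidogen 2, was 3.25-fold (2.20 to 4.89) over Pi16 cells and 1.29-fold (0.897 to 1.89) over cells of neither class, and against all other mesenchyme it was 1.49-fold with every cell thinned before the rule. Col18a1, the precursor of endostatin, was the 1 gene of the 15 higher against both, at 3.74-fold (2.12 to 6.87) and 3.29-fold (1.63 to 7.34). Sparcl1, a matrix glycoprotein, was 8.34-fold (5.73 to 12.5) over Pi16 cells and 0.702-fold (0.570 to 0.865) the level in cells of neither class. Lama2, a laminin chain, and Smoc2 were lower than in cells of neither class, by 2.04-fold (1.66 to 2.51) and 2.77-fold (1.98 to 3.92).

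Matrix proteases and their inhibitors went in both directions, with 5 of 21 measured genes higher and 4 lower than in the other mesenchyme (2.98% and 4.96% of all genes). Mmp19, a metalloproteinase, was at 200.1 (169 to 235) CPM in adipogenic cells, 6.11 (2.46 to 12.6) in Pi16 cells and 49.9 (33.1 to 72.1) in cells of neither class, in 47 of 89 cells. Its ratio to the other mesenchyme was 9.76-fold, and 3.67-fold with the rule without Fabp4. Timp1, an inhibitor of metalloproteinases, was at 427 (381 to 476) CPM against 55.0 (42.2 to 70.3) and 143 (113 to 177), in 37 cells, 1 of which held 54 UMIs, and its ratio to the other mesenchyme of 5.10-fold was 3.04-fold without cells bearing endothelial, mural or macrophage markers. Both stood apart from each of the other classes. Adamts9, Adamts4 and Adamts12, of a family that cuts proteoglycans, were 2.81-fold (1.75 to 4.56), 2.59-fold (1.69 to 3.97) and 2.42-fold (1.82 to 3.22) higher. With every cell thinned before the rule the ratio of Adamts9 was 1.87 and that of Adamts4 1.55, both under 2-fold. Adamts5, Htra3, Mmp16 and Timp3 were lower than in the other mesenchyme. Against cells of neither class 3 of 20 measured genes of this list were higher (Adamts9, Mmp19 and Timp1) and 1 lower (Serpine2). There 2.21% and 2.18% of all genes were higher and lower. Among proteoglycans and glycoproteins, 2 of 17 measured genes were higher and 1 lower, the latter close to the share over all genes. Igfbp7, a matrix-bound IGF-binding protein, was 3.11-fold (2.74 to 3.52) higher in 85 cells. It passed 2-fold against Pi16 cells. Against cells of neither class 0 of 16 measured genes of this list passed 2-fold in either direction (2.21% and 2.18% of all genes higher and lower). Sdc1, or syndecan 1, was 3.91-fold (2.22 to 7.04) higher on 36 UMIs in 20 cells, with a ratio of 1.58 in thinned cells.

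Genes of the Pi16 side were low in adipogenic cells, which the limit on the Pi16 sum partly fixes. Of 18 measured, 12 were lower than in the other mesenchyme and 0 higher (4.96% and 2.98% of all genes). Against Pi16 cells alone 17 of 18 were lower (6.55% of all genes), and against cells of neither class, which share that limit, 1 of 12 (2.18%). Fbn1, or fibrillin 1, was at 882 (816 to 952) CPM in adipogenic cells, 3269 (3165 to 3375) in Pi16 cells and 1204 (1115 to 1299) in cells of neither class. Cd248, or endosialin, was 2.78-fold (2.22 to 3.51) and Efemp1, a fibulin, 2.46-fold (1.98 to 3.09) below the other mesenchyme. Igfbp6, which binds IGF2, was the gene of this list that was lower against both classes, at 153 (127 to 184) CPM against 744 (695 to 796) and 502 (445 to 565). Wnt2, a Wnt ligand, had 11 UMIs in 11 adipogenic cells against 171 UMIs in the others, 6.82-fold (3.72 to 13.9) lower. It was 4.52-fold lower with an adipogenic sum of at least 4 and 10.5-fold lower with levels from thinned cells. Bmp7 had 0 UMIs in adipogenic cells and 78 in the others, at least 11.4-fold lower when 3 UMIs over the class stand for 0.

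The genes ranked lowest in adipogenic cells were led by hemoglobin. A single cell of neither class held 10637 hemoglobin UMIs among its 12158, where the next mesenchyme cell had 6, and without it the log2 ratios of Hbb-bt, Hbb-bs and Hba-a2 were 0.44, 0.35 and 0.69, above 0. Hba-a1, ranked lowest of all, had 3 UMIs in adipogenic cells, and its log2 ratio was -1.32 without that cell. Igfbp5, an IGF-binding protein, had 7 UMIs in adipogenic cells against 465 in Pi16 cells and 7 in cells of neither class. Akr1c18, a hydroxysteroid dehydrogenase, was 18.97-fold (9.89 to 41.8) lower than in the other mesenchyme, Cadm3, a cell adhesion molecule, 21.5-fold (7.22 to 105), and Thy1, a surface glycoprotein, 15.4-fold (5.11 to 75.7). With no upper limit on the Pi16 sum they were 8.81-fold, 5.98-fold and 5.43-fold lower. Cadm3 was 6.34-fold lower with every cell thinned before the rule, Thy1 4.81-fold lower with the rule without Fabp4, and Igfbp5 6.98-fold lower without cells bearing endothelial, mural or macrophage markers, in place of 29.6-fold. Hpgd, which inactivates prostaglandins, was 21.1-fold (5.68 to 176) lower (10.3-fold with the rule without Fabp4), with 53 of its 93 UMIs in Pi16 cells from 1 cell.

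**Figure D3:**
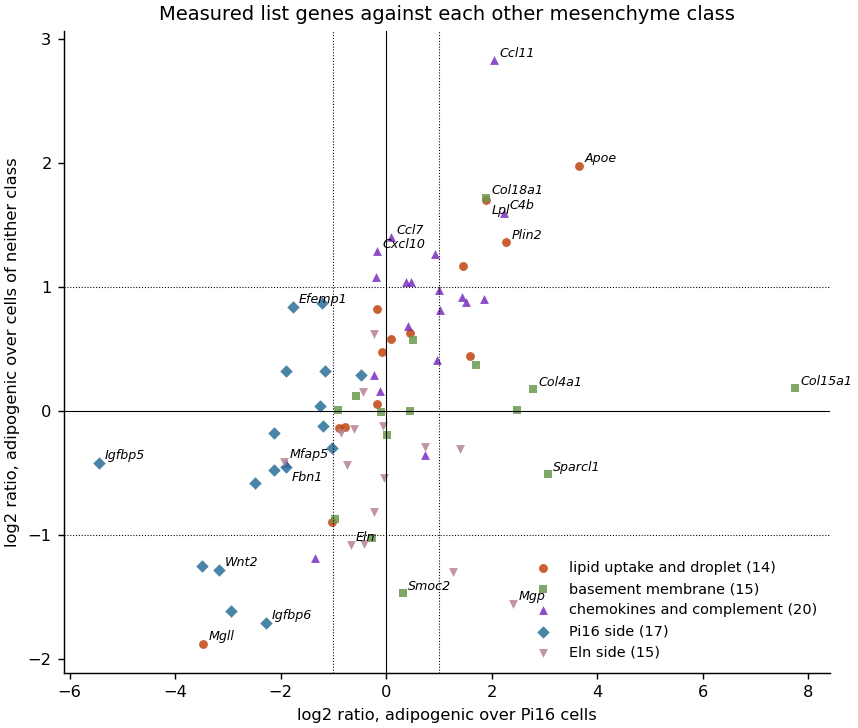
Each point is a measured gene of 5 lists, with the log2 ratio of adipogenic over Pi16 cells on the horizontal axis and over cells of neither class on the vertical axis, and dotted lines at 2-fold. Apoe and Lpl lie to the upper right, Col4a1 and Col15a1 to the right near 0 on the vertical axis, and the genes of the Pi16 side to the left.

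Eln, Mfap4, Mgp and Tpm2 were lower in adipogenic cells than in cells of neither class, among the listed genes of the Eln side. Of 15 measured genes of the Eln side, 14 lay within 2-fold of the other mesenchyme, and Mfap5, a microfibril glycoprotein, was 2.99-fold (2.74 to 3.28) lower, a share close to the 4.96% of all genes. Against cells of neither class these 4 of 14 were lower and 10 lay within 2-fold (2.18% of all genes lower). Against Pi16 cells Mfap5 was lower, Emilin1 and Mgp were 2.63-fold (1.67 to 4.20) and 5.29-fold (2.81 to 10.7) higher, and 11 of 14 lay within 2-fold (5.02% of all genes higher, 6.55% lower). Eln, which encodes elastin, was at 606 (551 to 664) CPM against 1281 (1189 to 1378). Mfap4, an elastic fiber protein, was at 467 (419 to 519) against 982 (901 to 1067), and Mgp, or matrix Gla protein, at 60.04 (43.8 to 80.3) against 176 (143 to 215) CPM. A single adipogenic cell held 139 of the 454 Eln UMIs. Against the other mesenchyme, Eln was 1.04-fold to 4.92-fold lower over the other settings, and Mfap4 1.11-fold to 2.07-fold lower. Both thus passed 2-fold in some of them.

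BMP, TGF-beta, Wnt and FGF genes that differed from the other mesenchyme were mostly lower in adipogenic cells, which was not so against cells of neither class. Of 25 measured BMP and TGF-beta genes, 1 was higher and 5 were lower (Bmp2, Bmp3, Bmp4, Bmp7 and Tgfbr2). Of 13 measured Wnt genes 0 were higher and 3 lower (Sfrp4, Wnt2 and Wnt9a), and of 6 measured FGF genes 0 were higher and 1 lower (Fgf18). The share of all genes that were lower was 4.96%. Against Pi16 cells 7 of 21 BMP and TGF-beta genes and 3 of 10 Wnt genes were lower and 1 of each list higher, where 6.55% of all genes were lower and 5.02% higher. Against cells of neither class 1 of 18 BMP and TGF-beta genes was higher and 1 lower, and 0 of 5 Wnt and 0 of 3 FGF genes differed by 2-fold, with 2.21% and 2.18% of all genes higher and lower. Fgf10, the mesenchymal ligand needed for mammary bud formation, was sparse, at 42.7 (29.2 to 60.3) CPM in adipogenic cells, 28.8 (19.8 to 40.4) in Pi16 cells and 19.6 (9.78 to 35.1) in cells of neither class. Its ratio to all other mesenchyme was 1.66-fold (1.02 to 2.67). Prlr, the prolactin receptor, was 2.94-fold (1.67 to 5.24) higher on 31 UMIs in 16 cells, but 1.63-fold with every cell thinned before the rule and 1.67-fold with an adipogenic sum of at least 4. The higher gene of the BMP list was Bmper, an extracellular BMP regulator, by 3.42-fold (2.25 to 5.23) in 43 cells. Sox9, a transcription factor of several progenitors, was at 471 (423 to 523) CPM against 193 (168 to 220.0) in Pi16 cells and 207 (171 to 248) in cells of neither class. It was the 1 of 17 measured mesenchymal transcription factors that was higher than in the other mesenchyme. Osr1 and Osr2 were lower, where 2.98% of all genes were higher and 4.96% lower. Of 14 measured against cells of neither class, 3 were higher (Klf2, Sox9 and Twist2) and 2 lower (Osr2 and Runx1). There 2.21% and 2.18% of all genes were higher and lower. With the rule without Fabp4 the ratio of Sox9 was 1.92, under 2-fold.

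Markers of other cells were counted in the same way. The 10 endothelial markers summed to 74.7 (56.4 to 97.02) CPM in adipogenic cells, with Tek most abundant at 22 UMIs and Cdh5, Kdr, Tie1, Emcn and Esam at 0, against 152 CPM in Pi16 cells and 89.1 in cells of neither class. The 10 mural markers summed to 86.7 (66.9 to 111) CPM, with Abcc9 at 18 UMIs and Rgs5 and Higd1b at 0, against 156 and 171. The 10 macrophage and blood cell markers had 11 UMIs in all, 6 of them Cd68, with Ptprc, Adgre1, Csf1r, C1qa and Lyz2 at 0. In each of the endothelial and macrophage lists 5 of 10 markers were thus at 0 and 5 had UMIs, among them Pecam1 with 11, and 11 adipogenic cells held 2 or more endothelial UMIs and 2 cells 2 or more macrophage UMIs. The mural sum was below that of either other class. The 10 mammary epithelial markers, 3 of which were in the rule, summed to 471 (423 to 523) CPM, with Krt8 at 99 UMIs, against 158 in Pi16 cells, 982 in cells of neither class and 17389.8 in epithelial cells, and 118 of these 353 UMIs lay in 1 adipogenic cell. Without the cells that had 2 or more endothelial, mural or macrophage UMIs, 58 adipogenic cells and 60 others remained, with 67 of 2487 genes higher and 90 lower. That setting left out 31 adipogenic and 116 other mesenchyme cells, so it changed the comparison side more. In Pi16 cells Tek gave 120 of the 174 endothelial UMIs and Abcc9 78 of the 179 mural UMIs. Whether the cells left out were of another cell type was not tested. The part of the epithelial markers in the other results was not tested.

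Within the class, genes differed in how they followed the adipogenic sum. From the 12 cells with a sum of 2 to the 47 with 6 or more, Angptl4 went from 72.7 (29.2 to 149.9) to 467 (403 to 537) CPM, a ratio of 6.42-fold (3.05 to 16.2). Timp1 went from 93.5 (42.8 to 178) to 613 (540.5 to 694) CPM, and was at 126 CPM at a sum of 0 and 181 at 1. Apoe and Lpl differed less, by 1.60-fold (1.38 to 1.86) and 1.55-fold (1.30 to 1.85), and were at 1626 and 1035 CPM in the 21 cells with a sum of 1. Col4a1 was 2.31-fold (1.78 to 3.05) higher, but was at 1017 CPM at a sum of 0, 1187 at 1 and 644 at 2. Col15a1 at 0.906-fold (0.568 to 1.501), Cebpd at 1.12-fold (0.821 to 1.57) and Icam1 at 1.17-fold (0.755 to 1.87) had intervals that include 1. The ratio was 0.192-fold (0.141 to 0.262) for Eln and 0.745-fold (0.691 to 0.804) for Dlk1. Eln was at 987 CPM at a sum of 2, 1178 at 3 to 5, where 1 cell held 139 of the 280 UMIs, and 190.1 at 6 or more. Dlk1 was at 7679 CPM at a sum of 0, 7315 at 1, 9322 at 2, 8647 at 3 to 5 and 6945 at 6 or more. Median depth was 7330 UMIs at a sum of 2 and 8465 at 6 or more, and in cells thinned to 5000 UMIs the ratio was 5.87 for Angptl4, 1.69 for Lpl and 0.150 for Eln. The 17 cells left out for their Pi16 sum had Lpl at 1229 CPM, Apoe at 753 CPM, Angptl4 at 48.1 CPM and Mmp19 at 0 UMIs.

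**Figure D4:**
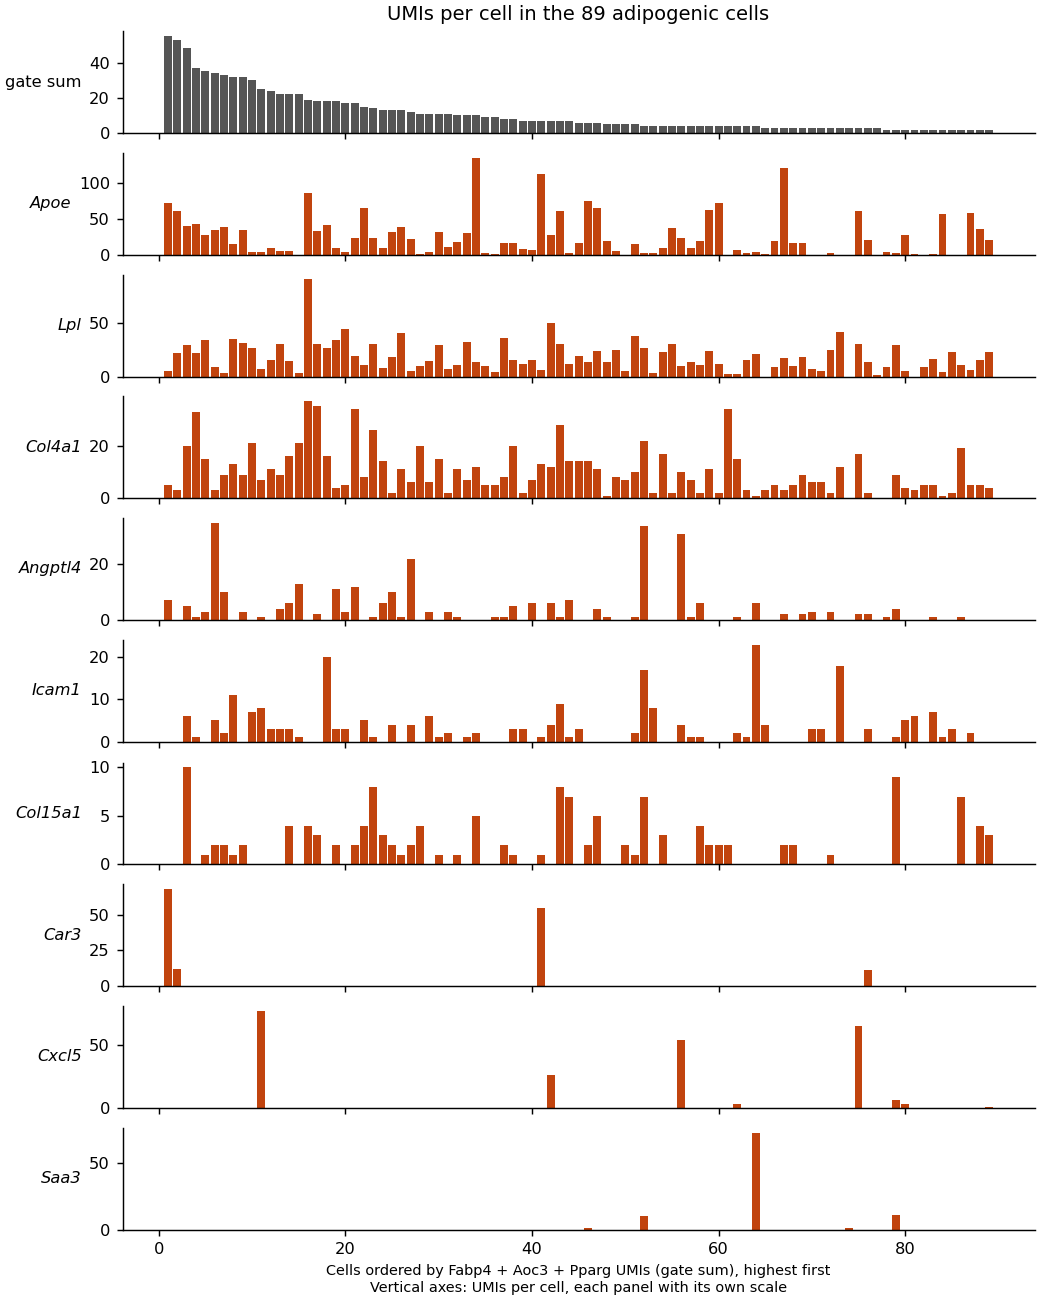
Bars give the UMIs per cell in each of the 89 adipogenic cells, ordered by the adipogenic sum (top panel) from the highest, with 1 panel a gene and an axis of its own for each. Apoe, Lpl and Col4a1 run across nearly all cells, while Car3, Cxcl5 and Saa3 stand in 4, 8 and 5 cells.

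The same rule was applied to the mesenchyme of the embryonic libraries. It found 2 of 129 cells at E13.5, 0 of 31 at E14.5 (exact 95% upper limit 11.2%, where 3 cells would be 9.68%) and 3 of 279 at E15.5, against 89 of 265 at P0. The embryonic mesenchyme cells were deeper, with medians of 16573, 24268 and 24324 UMIs against 8778. Over all mesenchyme cells, Fabp4 had 0 UMIs at each embryonic stage, where 3 UMIs would be 1.28, 3.58 and 0.422 CPM, and was at 364 (340.4 to 388) CPM at P0. Lpl was at 12.4, 2.39 and 3.38 CPM from E13.5 to E15.5 and 1069 (1028 to 1110.4) at P0, and Apoe at 34.6, 35.8 and 65.6 and then 1172 (1129.7 to 1216). Both genes were low in every embryonic library and abundant at P0. Pparg was at 3.85, 2.39 and 2.81 CPM and 19.9 (14.8 to 26.4) at P0.

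Some other genes of the class had UMIs before birth. Angptl4 was at 31.6, 63.2 and 49.4 CPM in the embryonic mesenchyme and 143 (128 to 159) at P0, and Plin2 was level, at 45.3, 50.1 and 50.2 and then 51.7 (43.1 to 61.5). Col15a1 was nearly absent at first, at 0.855 (0.104 to 3.09) CPM at E13.5 in 1 of 129 cells and 3.58 (0.738 to 10.5) CPM at E14.5 in 2 of 31. It was at 40.0 (35.5 to 44.9) CPM at E15.5, in 118 of 279 cells, when Fabp4 had 0 UMIs, and at 95.6 (83.8 to 109) CPM at P0. Dlk1 was at 2179.5, 2286 and 1539 CPM and then 7407 (7299.5 to 7515). Each stage was dissected in its own session, so stage, digestion and library cannot be told apart.

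**Figure D5:**
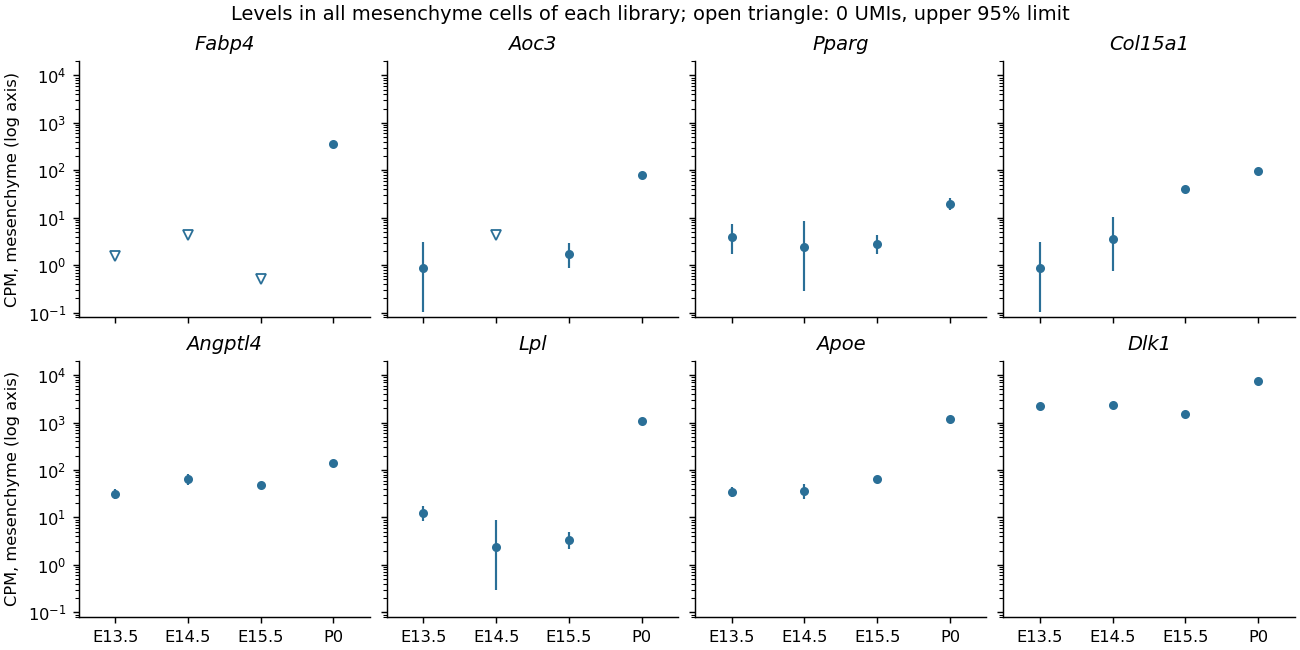
Points give the level (CPM, log axis) of each gene in all mesenchyme cells of each library (129, 31, 279 and 265 cells) with the exact 95% Poisson interval, and open triangles its upper limit where no UMI was found. Fabp4 has UMIs at P0 only, Lpl and Apoe are highest at P0, and Dlk1 is abundant at every stage.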

How the data were processed

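The authors sequenced sorted cells with 10x Chromium 3' chemistry and deposited a matrix of UMI counts per gene and barcode for each of 4 samples (mm10). The file headers name Cell Ranger 6.0.0, except 3.1.0 at E15.5, while the submitters' notes give 6.0.0. The deposited counts were used raw, and 0 columns of other series were used. Barcodes under 5000 UMIs or over 6% mitochondrial UMIs were left out, which left more P0 cells than the study states, so the cells are not an identical set, and the rule then divided the mesenchyme. Counts were summed over the cells of a class and divided by the class total (749533 UMIs in adipogenic, 1146263 in Pi16 and 561286 in neither cells). Levels have exact Poisson intervals, ratios exact conditional binomial intervals and shares Clopper-Pearson intervals, all at 95%. These cover counting error only, since cells of 1 library are not replicates. No p-value was computed.

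Genes with at least 50 UMIs over both sides were compared, and at least 2-fold counted as higher or lower. The text names the markers, the 15 highest and 10 lowest genes ranked by the interval bound nearest to 1, up to 4 of the most abundant genes past 2-fold in each list, and genes named in the study. Other genes, among them Cd36, Cebpa, Zfp423 and Il6, were added after their values were seen. A gene that the rule would name is not reported here. The members and the gene lists were chosen with earlier results of these data known. Doublets were called with Scrublet in scanpy 1.11.5, which marked 3 of the 503 kept P0 cells, 2 of them adipogenic, and they were kept. No kept P0 cell shared its barcode with another library. Gene positions are from GENCODE M21. The interval and ratio code was tested on simulated data. Python 3.11.15, numpy 2.4.6, scipy 1.17.1, pandas 2.3.3 and matplotlib 3.10.9 were used, and R 4.3.3 with edgeR 4.0.16 for the TMM scaling alternative. Other alternatives changed the limits of the rule, the depth, the filter and the cells left out.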

Additional observations from a re-analysis of the deposited data

Results flagged for a closer look

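Barcodes outside the filters, which entered no comparison, held some that met the rest of the rule. Of the 963 P0 barcodes that failed the UMI or mitochondrial filter, 32 did (3.32%, exact 95% binomial interval 2.28% to 4.66%), 31 of them under the UMI minimum. They were chosen by the same UMIs as the members, so the count is a description of the rule at lower depth. They were 13.3% (9.30% to 18.3%) of the 240 failing barcodes with mesenchyme collagens, at a median depth of 1977.5 UMIs. As a background, 3 of 371 failing epithelial barcodes (0.809%, 0.167% to 2.34%), at a median depth of 2163 UMIs, met the same limits on the adipogenic and Pi16 sums, as did 2 of the 229 kept epithelial cells.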

How the results depend on the processing

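The number of members was 89, and 58 without cells with endothelial, mural or macrophage UMIs. The count of higher genes (152) was 80 when every cell was thinned before the rule, 81 with levels from thinned cells, 67 without cells with those other markers, 332 with at least 20 UMIs, 2431 with no filter and 459 at 1.5-fold. The count of lower genes (253) was 129, 145, 90, 634, 4137 and 684 under the same settings, and 151 with no limit on the Pi16 sum. Fewer genes were measured in thinned cells (3277 and 3288) and without the marker-bearing cells (2487) than the 5096 of the full comparison. Against Pi16 cells, thinned levels gave 121 higher and 166 lower genes. Higher lipid genes (5) were 3 when cells were thinned before the rule. Higher basement membrane genes (5) were 3 in that setting, with no Pi16 limit and without marker-bearing cells. Higher proteases and inhibitors (5) were 3 in both thinned settings and without marker-bearing cells. Higher chemokine and complement genes (6) were 3 with a Pi16 sum under 3. Over all measured genes the share higher was 2.44% when cells were thinned before the rule and 2.46% with levels from thinned cells. It was 2.69% with no Pi16 limit, 2.69% without marker-bearing cells and 3.39% with a Pi16 sum under 3. Thinning moved the stage levels of Pparg to 7.75 and Col15a1 to 1.55 CPM at E13.5. At E14.5 it moved Pparg and Col15a1 to 0, Lpl to 6.45, Apoe to 12.9 and Angptl4 to 45.2 CPM. Aoc3 went to 3.58 and Angptl4 to 59.5 CPM at E15.5, and Fabp4 to 425 at P0. Log2 ratios that turned from below to above 0 were those of Hbb-bt (0.47 with M over 10 times E, 0.44 without the hemoglobin-rich cell), Hbb-bs (0.49 thinned before the rule, 0.37 and 0.35 in those settings) and Hba-a2 (0.72 and 0.69). For 58 named genes over 16 settings, 871 values kept their direction and side of 2-fold, 26 kept direction but were no longer past 2-fold and 15 newly passed it. Those under 2-fold in at least 1 setting were Arc, Adamts4, Adamts9, Cd34, Col4a2, Cxcl12, Fabp5, Hba-a2, Nid2, Prlr, Scd2, Sdc1 and Sox9. Bmp7, at 0 UMIs, gave only a bound. Hba-a1 stayed below 0 in each of these (-1.21, -1.32 and -1.03 thinned before the rule). Ratios past 2-fold moved by over 1.5 times for 15 genes with the rule without Fabp4 (log2 of Car3 8.38 to 1.37, Rgs16 4.67 to 2.14, Angptl4 3.62 to 2.01, Cxcl5 3.67 to 1.86, Apoe 2.88 to 2.05, Agt 2.93 to 1.43 and Plin2 1.91 to 1.08 among them), for 19 when cells were thinned before the rule, and for 21 without marker-bearing cells (Saa3 5.77 to 2.14, Cxcl5 to 2.01, Arc 2.97 to 0.47 and Icam1 2.31 to 1.07 among them). The causes of these changes were not tested. Leaving out the hemoglobin-rich cell, cells with 5 or more Car3 UMIs, or each gene's richest cells were alternatives chosen after seeing the data. No paired analysis was possible because each stage had 1 library. Depth limited genes under 50 UMIs, such as Cd36 and Zfp423.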
